A study of Mus musculus with 6 samples.

Results

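Genes of oligodendrocytes and of the myelin they make were read on 6 Agilent SurePrint G3 mouse arrays of RNA labelled hypothalamus. The 9 genes were Mbp, Mog, Mag, Mobp, Cldn11, Olig1, Olig2, Pdgfra and Cspg4. Every probe that carries 1 of these symbols as its gene name was taken, which gave 19 of 56605 probes. The array holds 37074 gene names in all. The mice were male C57BL/6J DIO mice, in which obesity is brought on by food with 60 kcal% fat, given from 6 weeks of age for 16 weeks to both groups. The GSK-J4 group (3 arrays) received GSK-J4 at 30 mg per kg, a small molecule that inhibits the demethylases of H3k27me3, a histone mark of silenced genes. The vehicle group (3 arrays) received the carrier with 2% dimethyl sulfoxide. A different mouse was used for each array, and collection was at ZT 6 h, counted from lights on. The series text dates the tissue to 4 d after exposure, and the length of treatment behind the arrays is not settled by the sources used here.

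The vehicle arrays shared 1 slide and scan and the GSK-J4 arrays another, so that treatment, slide and scan cannot be told apart. The 75th percentile of the scanner signal was 787 to 916 on the vehicle arrays and 406 to 461 on the GSK-J4 arrays, and 62.8% to 63.6% against 57.7% to 58.7% of the probes were well above background. The label of the tissue was set against marker lists written after these values had been seen. Of 10 transcription factors known from the hypothalamus, Nr5a1 alone was well above background on all 6 arrays, 3 were on some arrays, and Sim1, Nkx2-1, Otp, Six6, Hmx2 and Hmx3 were on none. Of 11 hypothalamic neuropeptide genes 6 were well above background on all 6 arrays, while Avp, Pmch and Trh were on 3. In contrast, all 8 genes known from cerebral cortex and hippocampus, among them Emx2, Tbr1 and Neurod6, were well above background on all 6 arrays. The RNA is therefore called by its label only. The 6 neuropeptide genes on all 6 arrays were Pomc, Npy, Oxt, Hcrt, Crh and Ghrh. Their differences of GSK-J4 minus vehicle ran from 0.09 (log2, Oxt) to 0.86 (Pomc), and the part of this in the results below was not tested. Agrp, at 0.10, and Kiss1, at 1.02, were well above background on 5 arrays. They passed the filter through 1 group alone, so that their differences are not read.

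Oligodendrocytes are the glia of the central nervous system that wrap axons in myelin, a stack of membrane held together by a small set of abundant proteins. They arise from precursor cells that carry the platelet-derived growth factor receptor Pdgfra and the proteoglycan NG2, the product of Cspg4, and the factors Olig1 and Olig2 act through the lineage. Maturation is marked by the onset of the myelin genes, and in the adult brain precursors persist beside the mature cells. Since the RNA came from whole tissue, fewer cells of a type and less RNA per cell cannot be told apart.

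Most of the 9 genes differed little between the groups, and Cspg4 was the exception that passed the test. A probe was kept if it stood well above background on every array of 1 group or of both. Of the 19 probes 15 were kept, and these did so on all 6 arrays and covered all 9 genes. Among them limma called 1 probe higher on the GSK-J4 arrays, that of Cspg4, at an adjusted p of at most 0.05, whereas 8.39% of the 34444 kept probes of the array were called higher and 16.8% either way. No member probe was called lower by limma, beside 8.42% of all kept probes, with 2 higher and 1 lower at an unadjusted p of at most 0.05 (19.5% and 17% of all kept probes) and 0 called by the methods' t-test after adjustment. That t-test called 56 higher and 37 lower among the 34444 kept probes, so that a count of 0 says little about the members. For 12 of the 15 probes the 95% interval of the difference lay within 1.5-fold either way, as for 49.3% of all kept probes. Taken by the brightest probe of each gene it was 7 of the 9, beside 52.4% of all genes. The groups did not overlap for 3 of the 15 probes, beside 45.6% of all kept probes. The median difference of the 15 probes was −0.04 (log2), beside 0.02 over all kept probes. Its sign depended on the scaling, since signals scaled to the 75th percentile of each array gave 0.13, beside 0.05 over all kept probes.

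**Figure D1:**
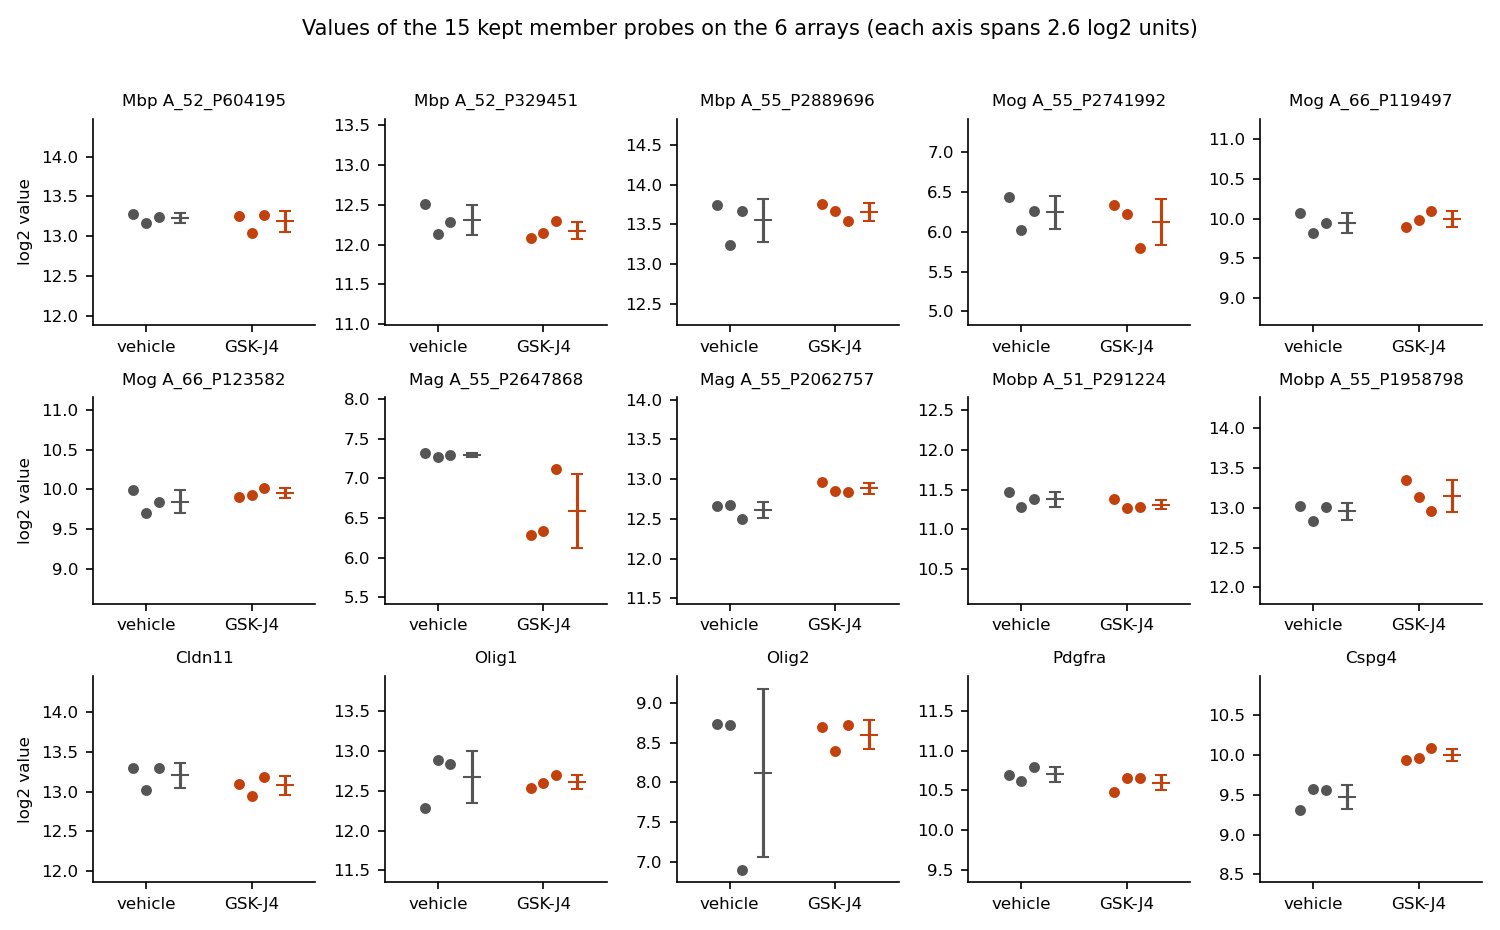
Deposited log2 values of the 15 kept member probes, 1 panel per probe, with the 3 vehicle arrays in grey and the 3 GSK-J4 arrays in orange, in the order of their replicate numbers, and the mean and SD of each group beside them. Groups stood apart for Cspg4, which was higher on the GSK-J4 arrays, and for both Mag probes, which went in opposite directions, and 1 vehicle array was low for Olig2.

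Mbp codes for myelin basic protein, which holds the inner faces of the myelin membrane together. Its 3 probes lay 11.8 to 26.1 kb apart. The probe A_55_P2889696 read 13.74, 13.24 and 13.67 (log2) on the vehicle arrays and 13.76, 13.67 and 13.54 on the GSK-J4 arrays. The groups overlapped, and the difference was 0.11 ± 0.15 (log2, SE), with a limma adjusted p of 0.646. A_52_P604195 read 13.28, 13.17 and 13.24 on the vehicle arrays and 13.26, 13.04 and 13.27 on the GSK-J4 arrays, again with overlap, and differed by −0.04 ± 0.09. A_52_P329451 differed by −0.13 ± 0.12, and its highest value, 12.51, was that of vehicle 1. The intervals of all 3 probes lay within 1.5-fold, and no Mbp probe differed from the others of the gene in diffSplice, limma's test of a probe against the other probes of its gene (adjusted p of 0.486 to 0.934).

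Mog codes for a glycoprotein on the outermost face of the myelin sheath, and Mobp for a basic protein of compact myelin. The probe sequences of the 2 genes shown here have a GC content like that of the Cspg4 probe described below, which is why they are set out, with G and C in capitals, 5′ to 3′. The Mog probe lies at chr17:37149021-37149332 on the minus strand and spans 312 bases, more than its own 60, and the Mobp probe at chr9:120077006-120077065 on the plus strand (mm9, the build of the files).
Mog A_66_P119497: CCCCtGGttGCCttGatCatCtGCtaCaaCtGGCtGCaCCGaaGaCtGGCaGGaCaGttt
Mobp A_51_P291224: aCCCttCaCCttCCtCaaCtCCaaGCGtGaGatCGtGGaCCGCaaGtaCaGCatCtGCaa
This Mog probe read 10.07, 9.82 and 9.95 (log2) on the vehicle arrays and 9.90, 9.98 and 10.10 on the GSK-J4 arrays, and differed by 0.05 ± 0.10 (SE), with a limma adjusted p of 0.756. The 2 other Mog probes differed by 0.11 ± 0.10 (A_66_P123582) and −0.13 ± 0.18 (A_55_P2741992), and the groups overlapped for each of the 3. This Mobp probe read 11.47, 11.28 and 11.39 on the vehicle arrays and 11.38, 11.28 and 11.28 on the GSK-J4 arrays, and differed by −0.07 ± 0.08. The other Mobp probe, A_55_P1958798, which lies 8.14 kb away, read 13.02, 12.83 and 13.01 on the vehicle arrays and 13.35, 13.14 and 12.96 on the GSK-J4 arrays, and differed by 0.19 ± 0.12, with a limma adjusted p of 0.303. The groups overlapped for both Mobp probes, and diffSplice did not separate them (adjusted p = 0.305).

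Cldn11 codes for claudin 11, which forms the tight junctions between the layers of the sheath. Its probe read 13.30, 13.03 and 13.30 (log2) on the vehicle arrays and 13.10, 12.95 and 13.19 on the GSK-J4 arrays. The groups overlapped, and the difference was −0.13 ± 0.11 (SE), with a 95% interval of −0.41 to 0.15 and a limma adjusted p of 0.452.

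Mag codes for myelin-associated glycoprotein, an adhesion molecule of the membrane that faces the axon, and its 2 probes moved apart. A_55_P2062757, at chr7:31684202-31684261 on the minus strand, read 12.66, 12.67 and 12.49 (log2) on the vehicle arrays and 12.97, 12.86 and 12.84 on the GSK-J4 arrays. Every GSK-J4 array lay above every vehicle array, as for 24.5% of all kept probes, and the difference was 0.28 ± 0.09 (SE), or 1.21-fold. It did not pass after adjustment (limma adjusted p = 0.0747, exact permutation p = 0.1, the smallest that 3 against 3 arrays allow). With signals scaled to the 75th percentile, with normexp background correction and with an intensity trend in the variance model it did pass, at adjusted p of 0.0185, 0.0456 and 0.0436. With a correction for probe GC content the difference was 0.14, at a limma adjusted p of 0.326. It also did not pass with the methods' t-test (adjusted p = 0.134) or without any 1 array (limma adjusted p of 0.1 to 0.193). A_55_P2647868, at chr7:31692616-31692675 on the same strand, was designed to a transcript record of Ensembl and lies 8.41 kb from the first. Its bases 16 to 45 are set out because it is the member probe that was lower on every GSK-J4 array, with G and C in capitals, 5′ to 3′.
Mag A_55_P2647868: tGaGttCaaGGCCaGtCtGGaCtatataat
This probe read 7.32, 7.27 and 7.29 on the vehicle arrays and 6.29, 6.34 and 7.12 on the GSK-J4 arrays. Every GSK-J4 array lay below every vehicle array, as for 21.2% of all kept probes, but GSK-J4 3 lay close to them. The difference was −0.71 ± 0.23 (log2, SE), with a limma adjusted p of 0.0853, and −0.98 without GSK-J4 3, at an adjusted p of 0.0221. Without any 1 of the other arrays it was −0.73 to −0.56 and not called (limma adjusted p of 0.178 to 0.19). The methods' t-test gave an adjusted p of 0.278. With a change of 1.5-fold or more and an unadjusted limma p up to 0.05 it was lower, as were 7.86% of all kept probes, and no member probe was higher, beside 4.79%. With the p of the methods' t-test in place of that of limma no member probe passed these thresholds in either direction. The changes of the 2 Mag probes differed by 0.99 (diffSplice adjusted p = 0.0342), and 13% of the probes with other probes of their gene were called in that test. Gene models of mm9 were not used here, so that exon, intron or UTR is not given for these positions. Whether the probe A_55_P2647868 reads RNA of Mag alone was not tested.

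Olig1 and Olig2 code for paired basic helix-loop-helix transcription factors of the lineage. Olig1 read 12.29, 12.88 and 12.84 (log2) on the vehicle arrays and 12.53, 12.60 and 12.70 on the GSK-J4 arrays. Vehicle 1 was the lowest of all 6, and the groups overlapped with a difference of −0.06 ± 0.18 (SE) and a limma adjusted p of 0.828. Olig2 read 8.74, 8.73 and 6.90 on the vehicle arrays and 8.70, 8.39 and 8.72 on the GSK-J4 arrays. Its difference of 0.48 ± 0.52, with a 95% interval of −0.80 to 1.75, rested on vehicle 3, and without this array it was −0.13, at a limma adjusted p of 0.548. The spot of vehicle 3 was well above background, and no spot of a member probe had an outlier flag.

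Pdgfra, the receptor by which precursors receive platelet-derived growth factor, is also used by vascular fibroblasts. Its kept probe, A_51_P345649, read 10.70, 10.61 and 10.80 (log2) on the vehicle arrays and 10.48, 10.66 and 10.65 on the GSK-J4 arrays. The groups overlapped, and the difference was −0.10 ± 0.09 (SE), with a 95% interval of −0.33 to 0.12 and a limma adjusted p of 0.439. The 2 other Pdgfra probes did not pass the background filter, with values of 1.91 to 3.81, and have no fold here.

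Cspg4 codes for the proteoglycan NG2, carried by precursors and by pericytes of the vessel wall. Its probe A_51_P160824, at chr9:56746627-56746686 on the plus strand (mm9), is set out because it is the single member probe called, with G and C in capitals, 5′ to 3′.
Cspg4 A_51_P160824: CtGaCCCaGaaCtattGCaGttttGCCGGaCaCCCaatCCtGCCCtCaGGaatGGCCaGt
It read 9.30, 9.57 and 9.56 (log2) on the vehicle arrays and 9.94, 9.96 and 10.09 on the GSK-J4 arrays. Every GSK-J4 array lay above every vehicle array, and the difference was 0.52 ± 0.10 (SE), or 1.44-fold, with a 95% interval of 0.27 to 0.78. Its limma adjusted p was 0.0287, and the exact permutation p was 0.1. The call did not hold when any 1 of the 6 arrays was left out (differences of 0.44 to 0.57, limma adjusted p of 0.0556 to 0.0843), nor with the methods' t-test (adjusted p = 0.114). Before normalization the scanner signal of this probe was 836, 1149 and 975 on the vehicle arrays and 766, 763 and 748 on the GSK-J4 arrays, that is in the other direction. All kept member probes other than that of Olig2, 14 of the 15, were brighter before normalization on every vehicle array than on every GSK-J4 array. The GSK-J4 arrays were dimmer as a whole, with a 75th percentile of 406 to 461 against 787 to 916. The share of all kept probes with this pattern was not counted, so that the count of 14 is not read as a result about the members. The 2 other Cspg4 probes were dim, with values of 2.05 to 4.60, and the probe A_55_P2741684 was well above background on 2 of the vehicle arrays and on no GSK-J4 array. Neither gave a fold.

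**Figure D2:**
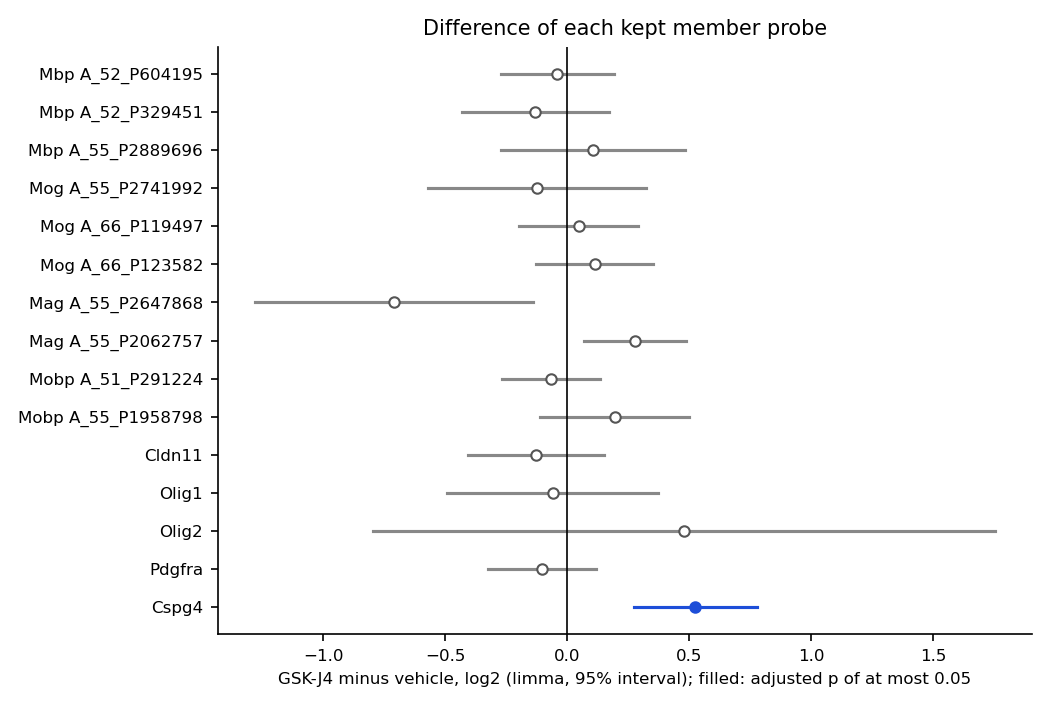
Difference of GSK-J4 minus vehicle (log2) with its 95% interval from limma for each kept member probe, filled where the adjusted p was at most 0.05. Cspg4 at 0.52 was called, the Mag probes lay at 0.28 and −0.71 without a call, and the interval of Olig2 was the widest.

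Of the 4 genes known from precursors, Olig1, Olig2, Pdgfra and Cspg4, Cspg4 alone was called. The difference of Pdgfra, the other surface marker of the precursor, had a 95% interval with an upper bound of 0.12. The Cspg4 probe has a GC content of 55% and the Pdgfra probe 36.7%. With the trend with GC content removed, as described below, Cspg4 differed by 0.29 (limma adjusted p = 0.107) and Pdgfra by −0.02 (0.913). Whether these genes change together was not tested. Of the 9 marker genes of pericytes and vascular fibroblasts, which also use Cspg4 and Pdgfra, 0 were called higher by limma (0 at an unadjusted p of at most 0.05) and 1 was called lower, beside 8.6% and 7.56% of all genes by their brightest kept probe. That gene was Rgs5, known from pericytes, which read 10.36, 10.39 and 10.29 (log2) on the vehicle arrays and 9.70, 9.73 and 9.90 on the GSK-J4 arrays, a difference of −0.57 ± 0.08 (SE) with a limma adjusted p of 0.0186, and of 0.0658 to 0.0748 without any 1 vehicle array. Averaged over these 9 genes, the vehicle arrays lay between −0.20 and 0.18 from the 6-array mean and the GSK-J4 arrays between −0.18 and 0.16.

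The differences of the array followed the base composition of the probes. Among the 5842 kept probes with a GC content of 50% to 60%, 20.1% were called higher and 1.57% lower, with a median difference of 0.23 (log2), whereas among the 7602 with 30% to 36% these shares were 1.79% and 15.4%, with a median of −0.15. The probe of Cspg4 has a GC content of 55% and the Mag probe that was lower 35%. The other 3 member probes of 50% to 60%, those of Mbp, Mog and Mobp, lay between −0.07 and 0.11. When the trend with GC content was removed within each array, the difference of Cspg4 was 0.29, at a limma adjusted p of 0.107, and that of the Mag probe A_55_P2647868 was −0.57, at an adjusted p of 0.146, so that no member probe was called.

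**Figure D3:**
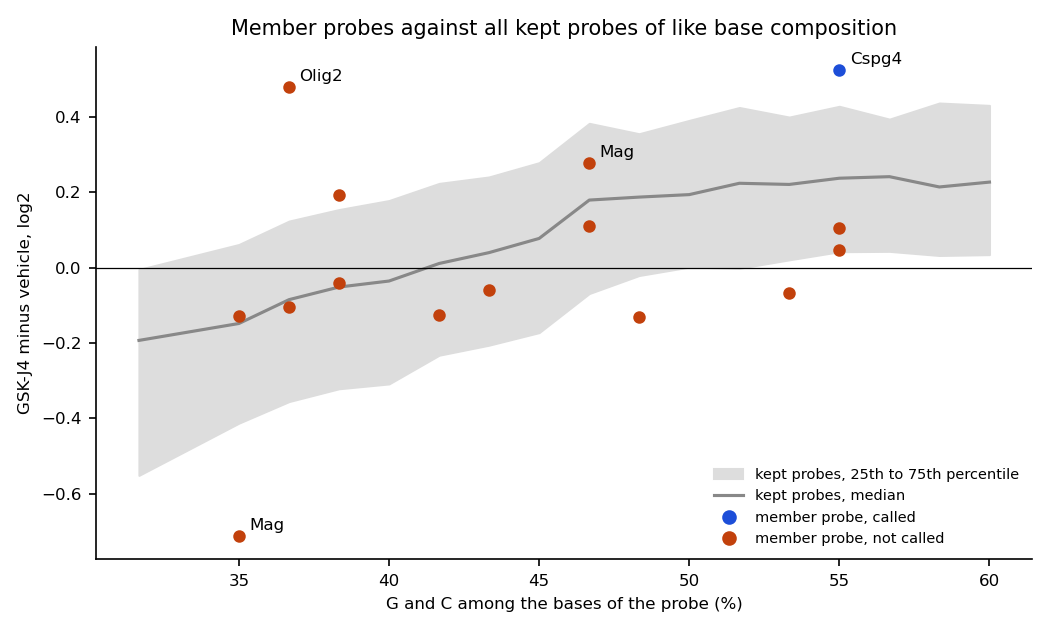
Difference of GSK-J4 minus vehicle (log2) against the share of G and C in the probe, with the 15 member probes as points, of which the called one is blue. The median and the quartiles of the kept probes are in grey, at the shares from 31.67% to 60% other than 33.33%. Shares with fewer probes were left out. The grey median rose with the share of G and C, Cspg4 at 55% lay above the grey band, and the Mag probe at 35% lay below it.

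The other genes of the lineage were read in lists of 114 genes, of which 112 had a kept probe (Olig3 and Fgf2 did not), each gene by its brightest kept probe. Limma called 7 of them higher and 1 lower, where 8.6% of the 22117 genes with a kept probe were called higher and 7.56% lower. The median difference of the 112 genes was 0.10 (log2), beside 0.04 over all genes. Scaling to the 75th percentile raised the calls to 26 higher and 0 lower, and removal of the GC trend left 1 higher and 0 lower. Over all 34444 kept probes, that scaling called 5036 higher and 3634 lower, against 2889 and 2899 with the deposited values. Removal of the GC trend called 1465 and 2222 of them. The 8 calls were lost on leaving out any 1 vehicle array, and 2 to 4 of them held on leaving out a GSK-J4 array.

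By the methods' t-test 0 and 0 of all 112 genes were called higher and lower, beside 56 and 37 of the 34444 kept probes. Among the 19 other myelin proteins 1 was called higher and none lower by limma (2 and 3 at an unadjusted p of at most 0.05). It was Cntn2, an adhesion molecule beside the nodes of Ranvier, at 10.39 to 10.60 (log2) on the vehicle arrays and 10.84 to 10.96 on the GSK-J4 arrays, a difference of 0.39 ± 0.09 (SE). The other probe of Cntn2 differed by 0.52 without a call (limma adjusted p = 0.119), and the median difference of the list was 0.06. Among 13 enzymes of myelin lipids, Gal3st1, which makes sulfatide, was called higher by 0.48 ± 0.10. Hmgcs1, an enzyme of cholesterol synthesis and the brightest of that list, differed by 0.16 ± 0.08, with a limma adjusted p of 0.215, while its second probe differed by −0.80 (adjusted p = 0.0629). The lipid list stood at 0.38 above its 6-array mean on vehicle 1 and between −0.16 and −0.02 on the other 5 arrays. On the same array the 8 choroid plexus markers averaged 3.89 above their mean, with the other 5 arrays between −1.11 and 0.02, and the part of this in the lipid list was not tested.

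Among 15 genes of precursors and newly formed oligodendrocytes, limma called 2 higher and none lower, beside 8.6% and 7.56% of all genes. At an unadjusted limma p of at most 0.05 it was 6 and 1, beside 19.5% and 17% of all kept probes. The median difference was 0.19 (log2), beside 0.04 over all genes. Of the 15 differences 14 were above 0. The share of all genes above 0 was not counted, so that this count is not read as a result about these genes. The called genes were Enpp6, a choline phosphodiesterase of newly formed oligodendrocytes, at 0.74 ± 0.17 (SE), and C1ql1, a secreted C1q-like protein, at 0.51 ± 0.08. Enpp6 read 5.93, 6.53 and 6.16 on the vehicle arrays and 6.96, 7.10 and 6.78 on the GSK-J4 arrays, while its second probe differed by 0.20 and was not called (limma adjusted p = 0.488). Bcas1, which marks cells that begin to make myelin, was the brightest of the list and differed by 0.12 ± 0.09. Averaged over the list, the 3 GSK-J4 arrays lay between 0.06 and 0.20 from the 6-array mean and the 3 vehicle arrays between −0.20 and −0.07.

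Of 28 other genes of mature oligodendrocytes 3 were called higher by limma and none lower, beside 8.6% and 7.56% of all genes. At an unadjusted limma p of at most 0.05 it was 10 and 0, beside 19.5% and 17% of all kept probes. The median difference was 0.19 (log2), beside 0.04 over all genes. Klk6, a serine protease, differed by 0.71 ± 0.16 (SE), Ppp1r14a, an inhibitor of a myosin phosphatase, by 0.56 ± 0.10, and Gpr62, an orphan receptor, by 0.53 ± 0.10. Ptgds, which codes for a prostaglandin D synthase and was the brightest of the list, differed by 0.24 ± 0.10 without a call (limma adjusted p = 0.136). Averaged over the list, the GSK-J4 arrays lay between 0.07 and 0.10 from the 6-array mean and the vehicle arrays between −0.15 and −0.01. The GC correction gave medians of 0.14 for these genes and 0.21 for those of precursors and new cells, with no call in either list.

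Among 15 other transcription factors of the lineage no gene was called by limma (2 higher and 0 lower at an unadjusted p of at most 0.05), and Sox5, the brightest, differed by 0.07 ± 0.11 (log2, SE), while its second probe differed by −0.40 (limma adjusted p = 0.0819). Among 22 ligands and receptors that act on the lineage 1 was called, and it was lower. Rtn4, which codes for the axon growth inhibitor Nogo, read 14.12, 14.18 and 14.09 on the vehicle arrays and 13.74, 13.64 and 13.43 on the GSK-J4 arrays, a difference of −0.53 ± 0.10 with a limma adjusted p of 0.0277. The other probes of Rtn4 differed by −0.45, at an adjusted p of 0.0272, and by −0.91, at 0.153. The first probe has a GC content of 35%, in the range of 30% to 36% where 15.4% of all kept probes were called lower. The other probes have 40% and 35%. For the first probe the GC correction gave −0.38 (limma adjusted p = 0.0771). Scaling to the 75th percentile gave −0.23 for it (limma adjusted p = 0.185). This gene is also expressed by neurons, and the cell type behind its difference was not tested. Of 12 neuron markers limma called none, beside 8.6% of all genes called higher and 7.56% lower. At an unadjusted limma p of at most 0.05 it was 1 higher and 2 lower, beside 19.5% and 17% of all kept probes.

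**Figure D4:**
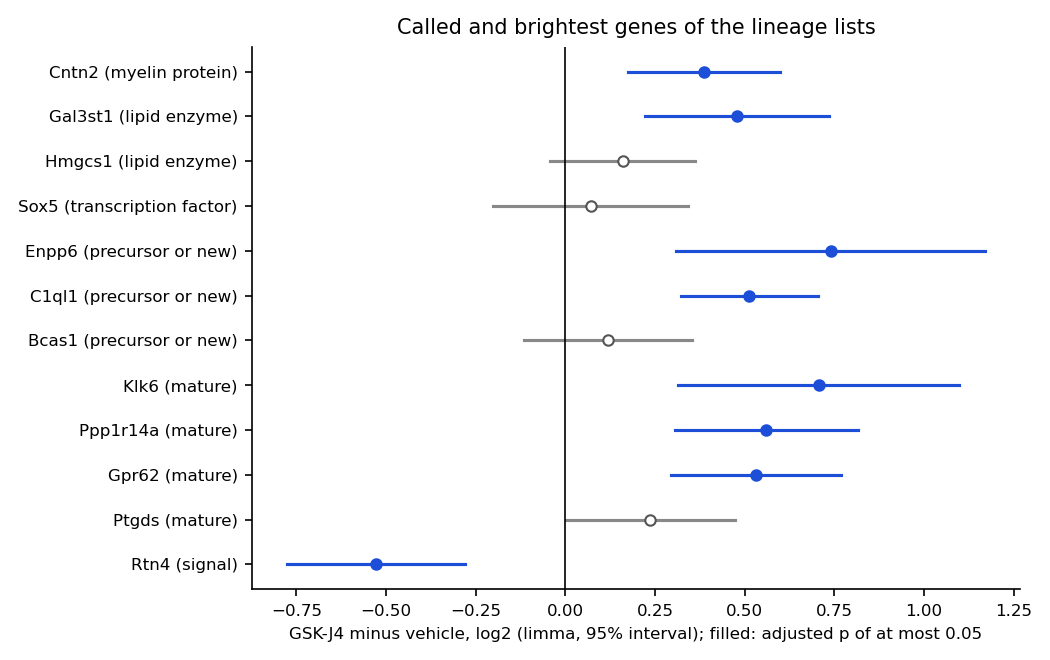
Difference of GSK-J4 minus vehicle (log2) with its 95% interval from limma for the called genes of the lineage lists and the brightest gene of each list except that of the myelin proteins, with the list in parentheses and filled points at an adjusted p of at most 0.05. The 7 genes called higher lay between 0.39 and 0.74, and Rtn4 at −0.53.

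**Figure D5:**
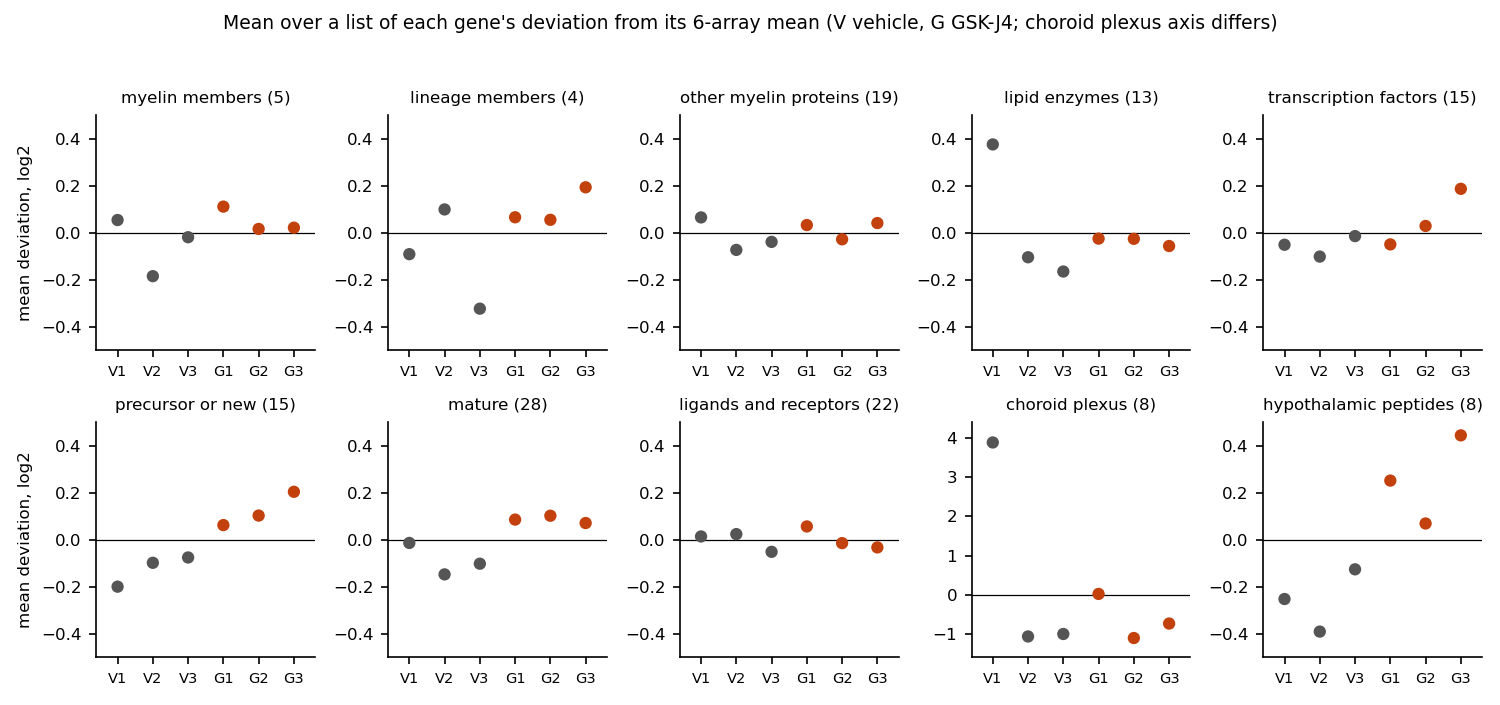
Mean over the genes of a list of the deviation from the gene's mean over the 6 arrays (log2), 1 point per array, with vehicle 1 to 3 (V) in grey and GSK-J4 1 to 3 (G) in orange. The myelin members were lowest on vehicle 2 (−0.18) and the lineage members on vehicle 3 (−0.32), the lists of precursor and mature genes were higher on the GSK-J4 arrays, and choroid plexus markers, on a wider axis, stood at 3.89 on vehicle 1. The panel of hypothalamic peptides includes Agrp and Kiss1, which passed the filter through 1 group alone.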

How the data were processed

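Total RNA was labelled with Cy3 and measured in 1 colour on Agilent SurePrint G3 mouse arrays, 3 labelled GSK-J4 and 3 labelled vehicle. The authors read each spot as a background-corrected intensity (Agilent Feature Extraction 10.7.1.1 in the submitters' processing notes). They deposited log2 values of 56745 probes, quantile normalized in GeneSpring according to the methods, and the sorted columns differ by at most 0.00424. Quantile normalization fixes the distribution of every array, so that a shift common to most probes cannot be seen in it. Coordinates were taken from the scanner files (mm9).

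The deposited log2 values were used without change. Of 56605 probes besides controls, 34444 were kept, with a share of at least 0.5 of their spots well above background on every array of 1 group or of both. The comparison used lmFit and eBayes of limma 3.58.1 in R 4.3.3, two-sided and with no covariate, with Benjamini-Hochberg adjustment over the kept probes. Probes of 1 gene were compared with diffSplice, and exact permutation tests enumerated the 20 orders of 3 arrays against 3. For the lists, the brightest kept probe by its mean stood for a gene. The genes named are all member probes, the called genes and the brightest gene of each lineage list, at most 2 called genes of each marker list, and the 5 genes most like the myelin members; 1 gene that this rule names is not reported here. The members and lists were chosen with earlier results of these data known, and the tissue lists after their values had been seen. The methods' t-test was run without the assumption of equal variances. The test was tested on simulated data. The number of arrays limits the precision. The alternatives were other sources and normalizations of the values, other filters, variance models and tests, a correction for probe GC content (lowess, span 30%), the replicate number as a block, and the omission of each array. Replicate numbers were not used as pairs, since deviations of arrays with the same number correlated at 0.00717 to 0.084 across probes. No set test was run, and 0 columns were left without a sample.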

Additional observations from a re-analysis of the deposited data

How the results depend on the processing

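There were 3 arrays per group, slide and scan cannot be told apart from treatment, and fewer probes were well above background on the GSK-J4 arrays. The number of member probes called higher, 1 as reported, was 2 with signals scaled to the 75th percentile, 2 with normexp and 2 with an intensity trend, and 0 with the methods' t-test, with the replicate block, with the GC correction and with the replicate block together with the GC correction. It was 0 in all 6 fits without 1 array. The number called lower, 0 as reported, was 1 with array weights and 0 to 1 without 1 array. The number past 1.5-fold and an unadjusted limma p of at most 0.05 lower, 1 as reported, was 0 with normexp, with the methods' t-test, with the GC correction and with the replicate block together with the GC correction, and 0 to 1 without 1 array. The lineage genes called higher, 7 as reported, were 26 with the 75th percentile, 11 with normexp, 3 with no filter, 11 with the intensity trend, 1 with the GC correction, 0 with the methods' t-test, with the replicate block and with the block and GC correction, and 0 to 3 without 1 array. Those called lower, 1 as reported, were 0 with the 75th percentile, 3 with normexp, 3 with probes well above background on all 6 arrays, 5 with the intensity trend, 2 with array weights, 0 with the methods' t-test, the replicate block, the GC correction, and the block and GC correction, and 0 to 2 without 1 array. The 8 called lineage genes kept their direction in all 17 alternatives. Of the 15 member probes, 10 changed sign in some alternative, with no call on either side, among them Olig2, which ranged from −0.13 to 0.79. Over all probes, 2889 were called higher and 2899 lower (49.9% higher), and 1465 and 2222 (39.7%) with the GC correction, while the replicate block called none in either direction. Scaling to the 75th percentile called 5036 higher and 3634 lower over all probes, and the methods' t-test 56 and 37. The omission of vehicle 1, 2 or 3 left 2, 1 and 1 probes called higher and 8, 12 and 4 lower. The numbers of the replicates are not known to pair the mice, and the loss of calls under the replicate block is not read as a weaker effect. The cause of these dependences was not tested.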

Other observations

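Of the 10 markers of microglia, the phagocytes of the brain, limma called 2 higher on the GSK-J4 arrays and none lower, beside 8.6% and 7.56% of all genes by their brightest kept probe. Both code for chains of complement C1q. C1qa read 10.97, 10.85 and 10.85 (log2) on the vehicle arrays and 11.20, 11.36 and 11.36 on the GSK-J4 arrays, and C1qb 10.40, 10.28 and 10.24 against 10.56, 10.80 and 10.94. The differences were 0.41 ± 0.08 and 0.46 ± 0.12 (SE), and both probes have a GC content of 55%, in the range of 50% to 60% where 20.1% of all kept probes were called higher. With the GC correction the differences were 0.18 and 0.22 and neither was called. Neither was called without any 1 vehicle array (limma adjusted p of 0.0703 to 0.107 for C1qa and 0.0951 to 0.142 for C1qb), nor without GSK-J4 2 (0.0674 and 0.101) or GSK-J4 3 (0.0606 and 0.0832). Of the 7 markers of Schwann cells, the cells that make myelin in peripheral nerve, 4 had a kept probe. Among the 4, limma called Pmp22 and Ncmap higher, by 0.36 ± 0.07 and 0.72 ± 0.12 (log2, SE), beside 8.6% of all genes. Without any 1 vehicle array neither was called, with limma adjusted p of 0.0763 to 0.113 for Pmp22 and 0.0669 to 0.0807 for Ncmap, and Pmp22 was not called without any 1 GSK-J4 array either (0.0516 to 0.067), nor Ncmap without GSK-J4 1 (0.0518). No marker of astrocytes (10 genes) or endothelium (10 genes) was called in either direction by limma, with 1 higher and 1 lower and with 0 higher and 1 lower at an unadjusted p of at most 0.05.

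The mean of the brightest probes of Mbp, Mog, Mag, Mobp and Cldn11 lay between −0.18 and 0.11 around its 6-array mean, lowest on vehicle 2. The genes whose brightest probe was most like this mean over the 6 arrays, of 20023 compared, were Cox11, Tagln3, Ranbp3 and 2 named by transcript records alone, with a root mean square distance of 0.03 to 0.04 (log2).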
